A study of Mus musculus with 9 samples.

Results

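Metallothioneins are small, cysteine-rich proteins that bind zinc and copper, and their genes are switched on when free zinc rises. The switch is the zinc-sensing transcription factor MTF1, which binds short metal response elements in promoters. In fat, metallothionein transcripts are made by adipocytes among other cells, and besides metals they are known to respond to glucocorticoids, inflammatory cytokines and oxidative stress. The 5 genes described here are Mt1 and Mt2, the widely expressed metallothioneins, Mtf1, Slc30a1, which encodes the zinc exporter ZnT1 and is itself a classical MTF1 target, and Slc39a14, which encodes ZIP14, an importer of zinc, iron and manganese. They were chosen by gene symbol, and all 5 were found among the 19505 genes with a symbol on the array, each with 1 transcript cluster (the unit that the array summarises to a single value).

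White adipose tissue of 9 male mice was measured on Clariom S mouse arrays, with 3 arrays in each of 3 groups. Wild type mice (C57BL/6JHamSlc-+/+) received vehicle. Leptin-deficient obese mice (C57BL/6JHamSlc-ob/ob) received either vehicle or, at 100 mg/kg, an extract called VE from Vigna umbellata, the rice bean. Mice were obtained at 6 weeks of age and ate standard chow. VE was given by gavage for 6 weeks, and the labels give 42 days for all 3 groups. Both ob/ob groups lack leptin from birth, so each comparison with wild type holds obesity and leptin deficiency together, and no lean group received VE. The fat depot and the composition of the vehicle were not stated.

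Values are log2 signals, so a difference of 1 is a doubling. Array medians lay between 6.26 and 6.37 and the highest signal on each array between 19.3 and 19.9. The adipocyte hormone gene Adipoq, the tissue's defining marker, read 17.93 to 18.87 in wild type, 18.07 to 18.52 in ob/ob vehicle and 18.89 to 19.06 in VE arrays. The wild type arrays were uneven. The mean of 16 epithelial markers, which include Cdh1 and Epcam, was 9.295, 9.67 and 7.275 on wild type arrays 1, 2 and 3 and 4.43 to 4.91 on the 6 ob/ob arrays. The mean of 7 hepatocyte markers also varied, from 8.38 to 14.94 in wild type, 11.68 to 13.08 in ob/ob vehicle and 11.81 to 14.84 in VE. In whole tissue, fewer cells of a type and less RNA per cell cannot be told apart.

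The metal response element core, searched as TGCACNC or TGCGCNC on both strands, is shown first because Mt1 and Mt2 are the members whose signals differed between groups. Promoters of 4 members were found in the RefSeq promoter table (GRCm38.p6). In the 250 bases before the listed start, Mt2 held 3 matches, Mt1 and Slc30a1 held 1 each and Mtf1 held 0. At least 1 match stood in 21.4% of all 32851 promoters of the table over the same length, and at least 3 in 1.26%. Capitals mark the matches below, all read on the plus strand from 5′ to 3′. The first run is the whole stretch before the Mt2 start, chr8:94172368-94172617. Next come the Mt1 stretches chr8:94179055-94179084, before the listed start, and chr8:94179091-94179115, just after it. Last is the Slc30a1 stretch chr1:191906727-191906756.
Mt2: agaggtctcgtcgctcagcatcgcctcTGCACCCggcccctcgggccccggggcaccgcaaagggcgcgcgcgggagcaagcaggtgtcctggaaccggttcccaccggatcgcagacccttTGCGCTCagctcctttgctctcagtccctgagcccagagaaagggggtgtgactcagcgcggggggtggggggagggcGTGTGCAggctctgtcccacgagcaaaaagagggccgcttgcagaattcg
Mt1, before the start: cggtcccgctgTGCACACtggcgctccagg
Mt1, after the start: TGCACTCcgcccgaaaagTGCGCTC
Slc30a1: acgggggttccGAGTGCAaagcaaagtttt

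In capitals, a run that begins with G and ends with GCA is a core on the minus strand. Over the whole window of 300 bases, which also covers the first bases after the start, Mt2 held 4 matches, Mt1 held 3, Slc30a1 held 2 and Mtf1 held 0. At least 4 matches stood in 0.517% of all promoters over that window, at least 3 in 1.97% and at least 2 in 7.11%. No matches overlapped. The RefSeq gene record of Mt1 begins upstream of the start listed in the promoter table, as does that of Slc30a1, so other starts are annotated for both genes. The counts before and after the start hold only for the listed starts. Bases outside the window were not searched, and a start further upstream or downstream could give other counts. A match is a description of letters and not of binding, which was not measured.

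**Figure D1:**
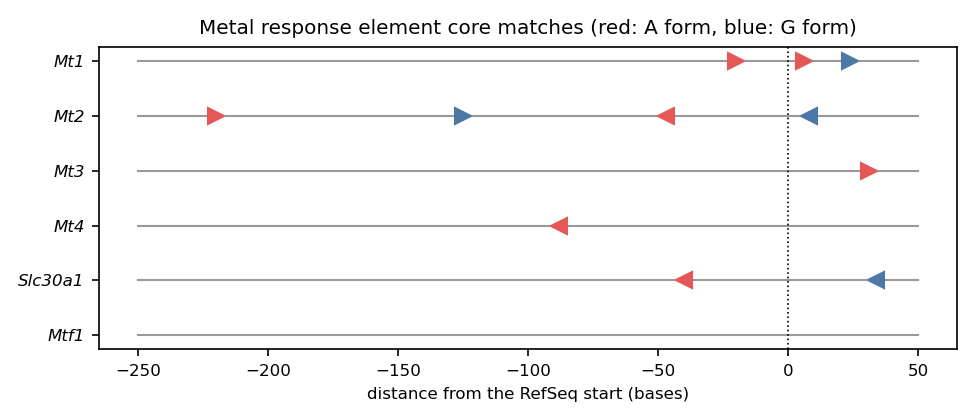
Each line is the promoter window of 1 gene, drawn as distance in bases from its RefSeq start (dotted), and each triangle is 1 match, pointing right on the plus strand and left on the minus strand, red for TGCACNC and blue for TGCGCNC. Mt2 has 4 matches, Mt1 has 3, Slc30a1 has 2, the neighbouring metallothionein genes Mt3 and Mt4 have 1 each and Mtf1 has 0.

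Mt2 showed the widest range of the members. It read 14.85, 13.48 and 15.05 on wild type arrays 1 to 3, then 17.92, 16.50 and 16.83 in ob/ob vehicle mice, and 18.88, 19.16 and 18.58 in VE mice. The 3 groups did not overlap: every wild type array lay below every ob/ob vehicle array, and each of these below every VE array. Groups stood in that order without overlap at 239 of 19572 clusters, or 1.22%, and in the reverse order at 0.848%. VE values of Mt2 lay close to the highest signal that any cluster reached on these arrays.

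Mt1 read 16.39, 15.37 and 16.76 in wild type mice. In ob/ob vehicle mice it read 18.40, 16.32 and 16.81. VE mice gave 18.58, 18.41 and 18.51, the tightest group of the 3. Wild type and ob/ob vehicle arrays overlapped, because ob/ob vehicle arrays 2 and 3 lay at the wild type level while array 1 lay next to the VE arrays. The lowest VE array and the highest ob/ob vehicle array were 18.41 and 18.40.

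The regulator and the transporters varied less. Mtf1 read 9.03, 8.82 and 8.76 in wild type, 8.59, 9.11 and 8.90 in ob/ob vehicle and 8.73, 9.42 and 9.26 in VE mice. Slc30a1 read 7.64, 7.41 and 7.66 in wild type, 7.79, 8.04 and 7.13 in ob/ob vehicle and 7.55, 7.53 and 7.66 in VE mice. For Slc39a14 the values were 7.63, 8.41 and 7.85 in wild type, 8.02, 8.77 and 8.67 in ob/ob vehicle and 8.37, 8.50 and 9.16 in VE mice. The groups overlapped in all 3 comparisons for each of these genes.

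**Figure D2:**
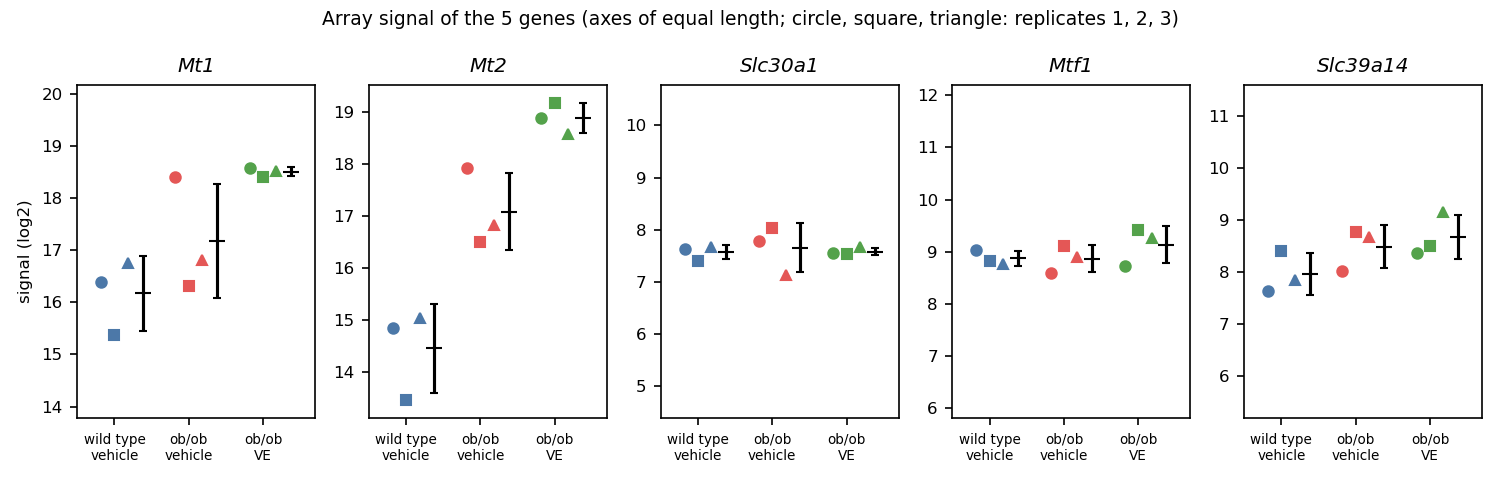
Array signal (log2) of the 5 genes in the 3 groups, with a circle, square and triangle for replicates 1, 2 and 3 and a bar for the mean ± SD (n = 3). The panels have axes of equal length but different positions. Mt2 steps up from 13.48 to 15.05 in wild type through 16.50 to 17.92 in ob/ob vehicle to 18.58 to 19.16 in VE mice, Mt1 separates only the VE group, and the other genes overlap.

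The first comparison describes the zinc genes of obese, leptin-deficient fat. Mt2 was higher in ob/ob mice, at 17.08 ± 0.74 (SD, n = 3) against 14.46 ± 0.85, a difference of 2.62 ± 0.47 (log2, SE) or 6.16-fold (adjusted p = 0.00464 by limma). It was the 1 member of 5 that passed, beside 14.1% of all clusters (9.02% higher and 5.05% lower; 28.4% at an unadjusted p under 0.05), and its call held in each of 24 alternative analyses. Mt1 did not pass, at 1.00 ± 0.51 (95% interval −0.14 to 2.14; adjusted p = 0.236 by limma). Without ob/ob vehicle array 1 the difference in Mt1 was 0.39, and without array 2 it was 1.43.

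Of the other members, Slc39a14 stood at 0.52 ± 0.32 (95% interval −0.19 to 1.24), Slc30a1 at 0.083 ± 0.26 (−0.50 to 0.66) and Mtf1 at −0.0033 ± 0.25 (−0.57 to 0.56). All 3 intervals span 0 and leave room for a change of up to their ends, and the sign of Slc30a1 and Mtf1 turned under some scalings. Only Mt2 had groups that did not overlap, beside 15.7% of all clusters in the higher direction.

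Macrophage and epithelial markers also differed between these groups. By limma, 18 of 18 measured macrophage genes rose from wild type to ob/ob vehicle mice, and their mean level was 7.77 to 9.06 in wild type, 12.98 to 13.53 in ob/ob vehicle and 13.31 to 13.78 in VE mice. Of 16 epithelial markers, 13 were lower. Their part in the Mt2 difference was not tested. Against wild type array 3 alone, which had the weakest epithelial signal of the wild type arrays, Mt2 was higher by 2.03. That array also had the highest hepatocyte marker mean of the 9 arrays, 14.94, against 12.59 and 8.38 on wild type arrays 1 and 2. Mt2 stood in the same order as that mean within wild type, but not within either ob/ob group. The part of hepatocyte signal in the Mt2 difference was not tested. None of the 13 measured adipocyte markers passed, and their mean was 15.64 to 16.83 in wild type and 16.17 to 16.75 in ob/ob vehicle mice.

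VE-treated and vehicle-treated ob/ob mice were compared to find what differs with the extract. Mt1 and Mt2 stood higher on every VE array than on every ob/ob vehicle array, but neither passed, and 0 of 5 members were called. Calls were rare in this comparison, at 5 clusters or 0.0255%, while 893 clusters (4.56%) had an unadjusted p under 0.05 in limma. The difference in Mt2 was 1.79 ± 0.47 (SE, n = 3; 95% interval 0.75 to 2.83), or 3.46-fold, with an unadjusted p of 0.00325 and an adjusted p of 0.589 by limma. For Mt1 it was 1.32 ± 0.51 (0.18 to 2.46), or 2.50-fold, with an unadjusted p of 0.0273 and an adjusted p of 0.997 by limma. By p, Mt2 ranked 104 and Mt1 535 among 19572 clusters. Both met the threshold that the submitters used, a fold of more than 1.1 at an unadjusted p below 0.05, as did 893 clusters. Groups did not overlap in the higher direction at 5.77% of all clusters.

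Mtf1 was at 0.27 ± 0.25 (log2, SE), Slc39a14 at 0.19 ± 0.32 and Slc30a1 at −0.073 ± 0.26 between VE and ob/ob vehicle, with adjusted p of 0.999 or more by limma. The 95% intervals ran from −0.30 to 0.84, from −0.52 to 0.90 and from −0.65 to 0.51. None of the hepatocyte, adipocyte or macrophage markers was called here by limma. Of 7 hepatocyte markers 7 stood above 0 (median 0.41), of 13 adipocyte markers 10 (median 0.10) and of 18 macrophage markers 11 (median 0.13). In the higher direction, groups did not overlap for 3 adipocyte and 3 macrophage markers, beside 5.77% of all clusters. In the lower direction they did not overlap for 1 adipocyte marker, beside 1329 of 19572 clusters. The part of these markers in the Mt1 and Mt2 differences was not tested.

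The third comparison, of VE-treated ob/ob with wild type mice, shares its wild type arrays with the first and its VE arrays with the second, so it is not a separate line of evidence. Mt2 was higher by 4.41 ± 0.47 (SE, n = 3), or 21.3-fold (adjusted p = 2.11e-04 by limma), and Mt1 by 2.33 ± 0.51, or 5.02-fold (adjusted p = 0.0113). Thus 2 of 5 members were called, beside 20.0% of all clusters (12.4% higher and 7.58% lower; 33.9% at an unadjusted p under 0.05). Groups did not overlap for Mt1 and Mt2, as for 19.5% of clusters in the higher direction. The call of Mt1 ended against wild type array 3 alone, at 1.74 (adjusted p = 0.107 by limma), and without empirical Bayes moderation (adjusted p = 0.0608). Slc39a14 stood at 0.71 ± 0.32 (−0.00099 to 1.43; adjusted p = 0.148 by limma), Mtf1 at 0.27 ± 0.25 and Slc30a1 at 0.010 ± 0.26.

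**Figure D3:**
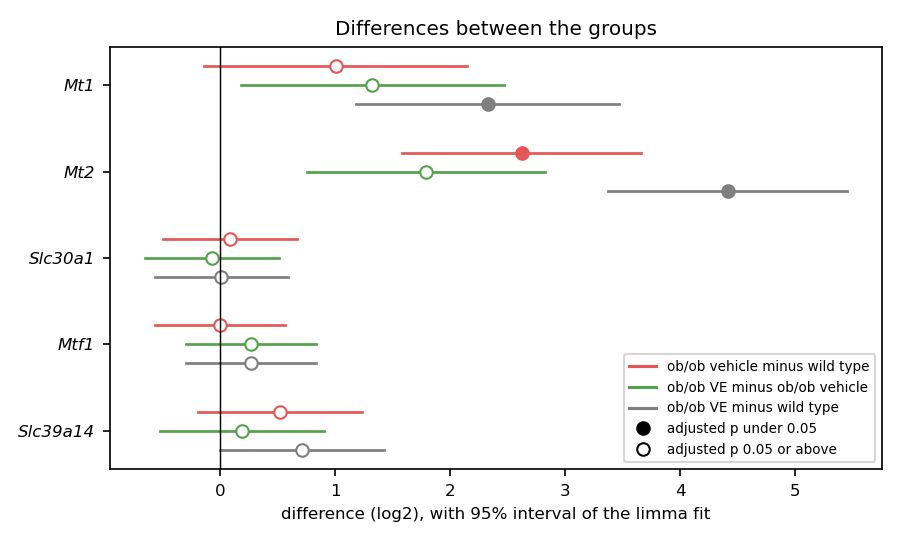
Difference between groups (log2) for each gene, with the 95% interval of the limma fit; filled points have an adjusted p under 0.05. Mt2 is filled in both comparisons with wild type and Mt1 only between VE and wild type, and all intervals of Slc30a1 and Mtf1 span 0.

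Mt1 and Mt2 were also compared with each other. Mt2 minus Mt1, taken within each array, was −1.54, −1.89 and −1.71 in wild type, −0.48, 0.18 and 0.02 in ob/ob vehicle and 0.30, 0.75 and 0.07 in VE mice. Its zero has no meaning, since the signals come from different probes. Its change between groups can be read only if both sets of probes respond alike at these high signals, which was not tested. Mt2 minus Mt1 was 1.62 higher in ob/ob vehicle arrays than in wild type arrays, with no overlap (exact permutation p = 0.1, two-sided). That p is the smallest that 3 against 3 arrays allow, so the test could not pass. Between ob/ob vehicle and VE, Mt2 minus Mt1 moved by 0.47, with overlapping arrays (exact permutation p = 0.2). For both genes, ob/ob vehicle array 1 was the highest of its group and wild type array 2 the lowest of its group.

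Both genes are short and bright, and the median of other short, bright genes lay on the same side of 0. Mt1 and Mt2 span 1445 and 950 bases of the genome and were brighter on average than 99.7% of clusters. The 120 clusters of genes that span under 2000 bases and lie in the brightest 25% by mean had a median difference of 0.48 (quartiles −0.16 and 1.67) between ob/ob vehicle and wild type and of 0.29 (−0.078 and 0.87) between VE and ob/ob vehicle. For all clusters these medians were −0.037 and −0.023, for all 2165 clusters of genes under 2000 bases −0.097 and −0.10, and for all 4891 clusters of the brightest 25% 0.32 and 0.06. The mean that sets brightness covers all 9 arrays, 6 of them ob/ob, so a cluster could enter by being high in the ob/ob groups, and no test was made of these medians. Array by array, the median deviation of the short, bright clusters, relative to that of all clusters, was −0.70, −0.48 and −0.55 in wild type. It was 0.54, −0.24 and −0.035 in ob/ob vehicle and 0.84, 0.49 and 0.48 in VE arrays. It was thus above 0 on ob/ob vehicle array 1, where Mt1 was high, and on all VE arrays. Its part in the Mt1 and Mt2 differences was not tested.

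Each array's trend on genomic span was removed in 2 ways, both chosen after seeing the data, and they moved the values in opposite directions. With the trend taken over all clusters, Mt1 read 18.33, 16.37 and 16.86 in ob/ob vehicle and 18.68, 18.48 and 18.59 in VE mice, without overlap. The differences between VE and ob/ob vehicle were then 1.39 for Mt1 (adjusted p = 0.875 by limma) and 1.88 for Mt2 (adjusted p = 0.397). Between ob/ob vehicle and wild type they were 1.08 and 2.72, of which Mt2 passed.

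With the trend taken within the brightest 25% of clusters, Mt1 read 17.96, 16.64 and 17.00 in ob/ob vehicle and 17.92, 17.98 and 18.12 in VE mice, so these groups overlapped. Its difference was then 0.81 (adjusted p = 0.9995 by limma) between VE and ob/ob vehicle and 0.52 between ob/ob vehicle and wild type. That between VE and wild type was 1.32 (adjusted p = 0.0438 by limma). Mt2 read 15.52, 14.06 and 15.49 in wild type, 17.42, 16.87 and 17.05 in ob/ob vehicle and 18.16, 18.68 and 18.15 in VE mice. Its order of groups, without overlap, was kept. Its differences were 2.09 between ob/ob vehicle and wild type (adjusted p = 0.00595 by limma), 1.22 between VE and ob/ob vehicle (adjusted p = 0.956) and 3.31 between VE and wild type (adjusted p = 4.18e-04).

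**Figure D4:**
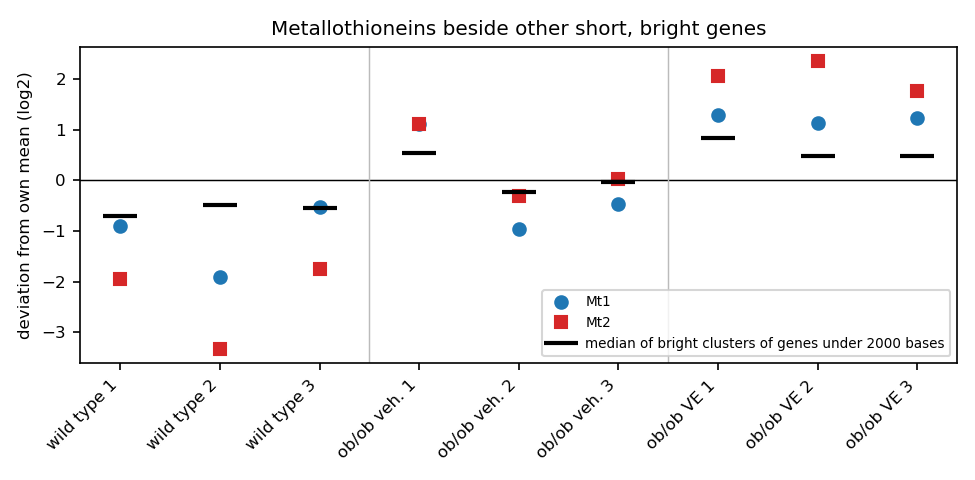
Deviation of Mt1 (circles) and Mt2 (squares) from their own mean over the 9 arrays (log2), beside the median deviation of the 120 bright clusters of genes under 2000 bases relative to all clusters (bars). The bars lie at −0.70 to −0.48 in wild type and 0.48 to 0.84 in VE arrays, and ob/ob vehicle array 1 is at 0.54.

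The profiles most like each member were sought among 18482 other genes, by the root mean square difference over the 9 arrays after each gene was centred on its mean. Nearest to Mt1 were the mitochondrial iron-sulfur protein gene Cisd3 (0.23), the cell cycle regulator Rgcc (0.27) and the cytochrome c oxidase subunit Cox6a1 (0.31), while the root mean square of the Mt1 profile itself was 1.13. Cisd3 read 9.02, 8.71 and 9.50 in wild type, 11.51, 9.53 and 10 in ob/ob vehicle and 11.58, 11.44 and 11.26 in VE mice, with the same high ob/ob vehicle array 1. Nearest to Mt2, whose own root mean square was 1.89, were Mustn1 (0.38), the small heat shock protein Hspb1 (0.48) and the leukotriene C4 synthase Ltc4s (0.51). Mt1 ranked 117 by likeness to Mt2 and Mt2 ranked 2000 by likeness to Mt1, at the same distance of 0.93. For Slc39a14 the nearest was the noncoding RNA Norad (0.13), then Napg and Cyb5d1. Slc30a1 and Mtf1 had narrow profiles, with root mean squares of 0.24 and 0.25. Their nearest genes were Gtf3c5 (0.099), Vps52 and D17H6S53E for Slc30a1 and Nlrp5 (0.098), Olfr1306 and Taar8b for Mtf1. Of these, D17H6S53E, Nlrp5, Olfr1306 and Taar8b read below the array medians of 6.26 to 6.37 on all 9 arrays.

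The other metallothioneins did not follow Mt1 and Mt2, which lie in a row with them on chromosome 8 in the order Mt4, Mt3, Mt2 and Mt1. Mt3, known from brain, read 4.56, 4.47 and 8.01 in wild type, 4.44, 4.33 and 4.28 in ob/ob vehicle and 3.90, 4.36 and 3.92 in VE mice. Its signal stood out on wild type array 3 alone and lay below the array medians of 6.26 to 6.37 on every other array. Mt4, known from stratified epithelium, read 8.40, 6.89 and 6.16 in wild type, 6.85, 6.22 and 6.37 in ob/ob vehicle and 5.28, 5.57 and 5.36 in VE mice. It was lower in VE than in wild type mice, at −1.75 ± 0.48 (SE, n = 3; adjusted p = 0.0281 by limma). That call ended without any 1 of the VE arrays, at adjusted p of 0.0691 to 0.0887 by limma, and against wild type array 3 alone, at −0.76 (adjusted p = 0.175). With VE against ob/ob vehicle, Mt4 stood at −1.08 ± 0.48 (adjusted p = 0.99995 by limma), with no overlap. All VE values of Mt4 lay below the array medians. Mt4 spans 1828 bases, and clusters of genes under 2000 bases had a median difference of −0.21 between VE and wild type, against −0.067 for all clusters. The part of low signal or span in the Mt4 differences was not tested.

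Zinc exporters of the ZnT family, which move zinc out of the cytosol, were all measured. None of the 10 passed between ob/ob vehicle and wild type mice with all arrays, and their median difference was 0.11. The largest were those of Slc30a2 (−1 ± 0.40, SE; adjusted p = 0.133 by limma), which was highest on wild type array 3, and of the secretory pathway exporter Slc30a5 (0.90 ± 0.37; adjusted p = 0.138). In the other comparisons 0 of 10 passed as well.

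Zinc importers of the ZIP family, which move zinc into the cytosol, had 4 of 14 members higher in ob/ob vehicle mice, 0 lower and 10 that did not pass, beside 9.02% of all clusters called higher. The family's median difference was 0.44. Slc39a10, a plasma membrane importer, read 7.43, 8.77 and 8.84 in wild type, 9.70, 9.94 and 10.06 in ob/ob vehicle and 10.07, 9.70 and 9.55 in VE mice. It was higher by 1.55 ± 0.37 (SE, n = 3; adjusted p = 0.0186 by limma), and both ob/ob groups lay above every wild type array. Slc39a13, the importer ZIP13 known for its part in connective tissue, read 6.18, 6.85 and 7.47 in wild type, 8.47, 8.57 and 8.12 in ob/ob vehicle and 8.35, 9.36 and 8.53 in VE mice, and was also higher by 1.55 ± 0.37 (adjusted p = 0.0199). Slc39a11 was higher by 1.16 ± 0.33 (adjusted p = 0.040 by limma) and the plasma membrane importer Slc39a1 by 1.07 ± 0.30 (adjusted p = 0.043).

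These 4 calls depended on the arrays used. Of 9 fits that each left out 1 array, 7 called Slc39a10, 6 Slc39a13, 3 Slc39a1 and 2 Slc39a11, and without ob/ob vehicle array 2 none was called (adjusted p 0.0666 to 0.158 by limma). Against wild type array 3 alone, Slc39a11 stood at 1.93, Slc39a6 at 1.34, Slc39a1 at 1.21, Slc39a10 at 1.06 and Slc39a13 at 0.92. In that fit Slc30a2 stood at −2.04, Slc30a3 at −2.13 and Slc39a4 at −1.50. Each of these read higher on wild type array 3 than on the other wild type arrays. Without that array, Slc30a2 stood at −0.48 and Slc30a3 at −0.018 between ob/ob vehicle and wild type, and neither was called. Macrophage markers differed between the same groups, and their part in these differences was not tested.

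Slc39a8, which encodes the importer ZIP8, was uneven in wild type mice. It read 15.49, 15.45 and 8.72 there, 9.86, 8.27 and 9.44 in ob/ob vehicle and 8.64, 7.84 and 11.37 in VE mice. Wild type arrays 1 and 2, which had the strongest epithelial signal, thus stood far above the rest. The difference of −4.03 ± 1.61 (SE, n = 3) between ob/ob vehicle and wild type did not pass (adjusted p = 0.131 by limma). It was −6.28 (adjusted p = 6.64e-04) without wild type array 3 and 0.47 (adjusted p = 0.857) against that array alone.

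With VE against ob/ob vehicle, 0 of 24 zinc transporters passed, their median difference was −0.085, and the smallest p was that of Slc39a3 at 0.51 ± 0.22 (adjusted p = 0.99995 by limma). Between VE and wild type mice, Slc39a13 (1.91 ± 0.37; adjusted p = 0.00606 by limma), Slc39a10 (1.43 ± 0.37; adjusted p = 0.0219) and Slc39a11 (1.08 ± 0.33; adjusted p = 0.0415) were higher and 0 of 24 were lower, a share of 3 in 24 beside 12.4% of all clusters called higher. The last 2 calls ended without some arrays: that of Slc39a10 without VE array 1 or 2 (adjusted p = 0.0843 and 0.0622 by limma), and that of Slc39a11 in 7 of 9 such fits.

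**Figure D5:**
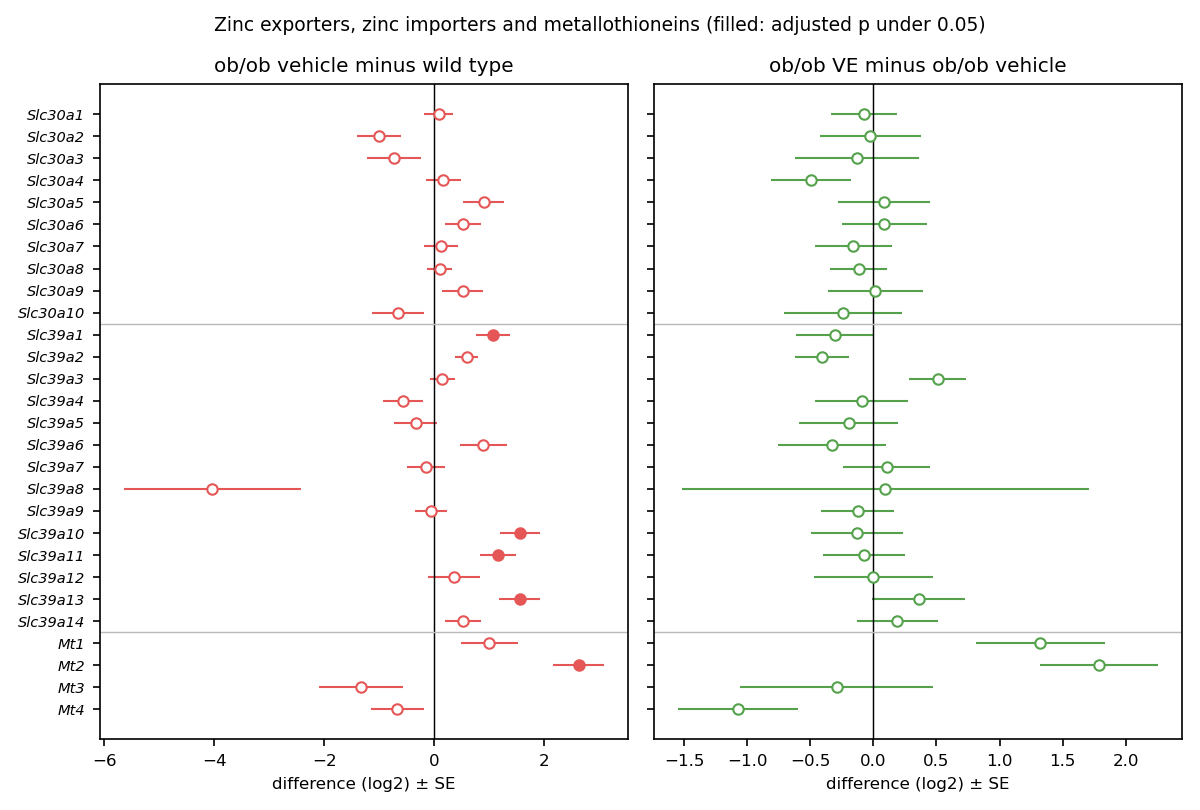
Difference ± SE (log2) of the 10 zinc exporters (Slc30), the 14 zinc importers (Slc39) and the 4 metallothioneins, between ob/ob vehicle and wild type (left) and between VE and ob/ob vehicle (right, on its own scale); filled points have an adjusted p under 0.05. On the left 4 importers and Mt2 are filled, all above 0, and on the right none is filled and Mt1 and Mt2 stand highest.

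Genes reported as MTF1 targets did not move one way. Of 11 measured, including Mt1, Mt2, Slc30a1 and Slc39a10, 3 were higher than wild type in ob/ob vehicle mice, 1 was lower and 7 did not pass, beside 9.02% of all clusters called higher and 5.05% lower. The median difference was 0.093 against −0.037 for all clusters. The iron exporter Slc40a1 was higher by 2.38 ± 0.67 (SE, n = 3; adjusted p = 0.0398 by limma) and read 7.91, 10.25 and 7.89 in ob/ob vehicle mice. Without array 2 of that group it stood at 1.60 (adjusted p = 0.113), and it was called in 5 of 9 fits that left out 1 array. The placental growth factor gene Pgf was lower, at −1.95 ± 0.36 (adjusted p = 0.00583 by limma), in all 9 such fits. The LIM domain protein gene Csrp1 stood at −2.66 ± 0.98 and read 16.96 on wild type array 2 against 12.52 and 12.30 on the other wild type arrays. Slc39a10, which MTF1 is known to repress, was among the 3 that were higher. Between VE and ob/ob vehicle 0 of 11 passed and the median was −0.0033. The selenoprotein gene Selenow was called between VE and wild type at 1.32 ± 0.29 (adjusted p = 0.0113 by limma), but not without VE array 1 (adjusted p = 0.051). In that comparison 4 of 11 were higher and 1 was lower, beside 12.4% of all clusters called higher and 7.58% lower. The lower gene was Pgf, at −2.47, in all 9 fits that left out 1 array.

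Copper genes were listed because metallothioneins also bind copper. Of 12 measured, 1 was higher than wild type in ob/ob vehicle mice and 0 were lower, beside 9.02% and 5.05% of all clusters: the metalloreductase Steap3 stood at 2.41 ± 0.38 (SE, n = 3; adjusted p = 0.00258 by limma). The copper exporter Atp7a was at 0.77 ± 0.55, the copper chaperone Ccs at −0.56 ± 0.23 and ceruloplasmin Cp at −2.16 ± 0.64 (adjusted p = 0.0511). With VE against ob/ob vehicle 0 of 12 passed, 10 stood above 0 and the median was 0.18. Between VE and wild type, Steap3 and the mitochondrial copper chaperone Cox17 (1.33 ± 0.33; adjusted p = 0.0186 by limma) were called, the latter not without VE array 3 (adjusted p = 0.0737).

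Glucocorticoids and interleukin 6 are known inducers of Mt1 and Mt2. Of 11 genes of the glucocorticoid response, 2 were higher than wild type in ob/ob vehicle mice, 3 were lower and 6 did not pass, with a median of −0.19, beside 9.02% of all clusters called higher and 5.05% lower. The glucocorticoid-reactivating enzyme Hsd11b1 was higher by 2.18 ± 0.62 (SE, n = 3; adjusted p = 0.0419 by limma) and the phosphatase Dusp1 by 1.70 ± 0.50 (0.0495). The glucocorticoid target Fkbp5 was lower by −2.38 ± 0.37 (0.00237) and Errfi1 by −1.88 ± 0.48 (0.0268). Of the 9 fits that left out 1 array, 9 called Fkbp5, 6 Errfi1, 2 Hsd11b1 and 1 Dusp1. Between VE and ob/ob vehicle 0 of 11 passed, while 10 stood above 0 with a median of 0.62, against −0.023 for all clusters. Fkbp5 read 12.43, 12.92 and 13.91 in ob/ob vehicle and 13.87, 14.61 and 14.02 in VE mice, which overlapped. Between VE and wild type 1 of 11 was higher and 1 was lower, beside 12.4% of all clusters called higher and 7.58% lower. Hsd11b1 stood at 2.42 there and Fkbp5 at −1.30. They were called in 5 and 4 of the 9 fits that left out 1 array.

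Of 12 genes of the interleukin 6 and STAT3 response, 3 were higher than wild type in ob/ob vehicle mice, 0 were lower and 9 did not pass, with a median of 0.97, beside 9.02% of all clusters called higher. The acute phase gene Orm1 was higher by 3.40 ± 0.57 (SE, n = 3; adjusted p = 0.00356 by limma) and the receptor Il6ra by 2.28 ± 0.44 (0.00713), while Il6st stood at 0.10 ± 0.49 and Lcn2 at −0.31 ± 1.29. The list holds parts of the pathway itself, such as Il6, Il6ra, Il6st and Stat3, beside genes that respond to it. Il6 read 3.08 to 4.67 and Socs3 3.04 to 4.86 over the 9 arrays, below the array medians, and neither was called. Orm1 read 10.07, 8.57 and 11.19 in wild type, 14.00, 12.67 and 13.35 in ob/ob vehicle and 14.44, 14.10 and 14.23 in VE mice. Its groups stood in the same order as those of Mt2 without overlap, as did those of 1.22% of all clusters. It was the 1 gene of these 12 without overlap between ob/ob vehicle and VE arrays, beside 5.77% of all clusters in the higher direction. The VE comparison with ob/ob vehicle gave 0 of 12, with a median of 0.10. Between VE and wild type 5 of 12 were higher and 0 lower, with a median of 1.02, beside 12.4% of all clusters called higher. Orm1 (4.31) and Il6ra (2.32) were called in all 9 fits that left out 1 array. Osmr (1.98) was called in 3 of those fits, and Il4ra (1.17) and Pim1 (0.90) in 2 each.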

How the data were processed

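The submitters labelled 100 ng of RNA per sample and normalized the arrays by SST-RMA in Transcriptome Analysis Console (4.0.2 per the design text, 4 per the submitters' processing notes). Each array's log2 signals, 1 per transcript cluster, were used as deposited. The genome build was not given in the sources used here. Of 22206 clusters, 19572 carry 1 gene symbol in the platform annotation, and these were tested. Symbols matched the RefSeq table of GRCm38.p6, which gave names and genomic spans. A gene is its cluster of highest mean. Detection calls were not used here.

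A model of 3 group means over all 9 arrays was fitted in limma 3.58.1 (R 4.3.3), moderated by empirical Bayes (4.02 prior degrees of freedom). Tests were two-sided, with Benjamini-Hochberg adjustment over 19572 clusters. A call is an adjusted p under 0.05. Precision is limited by the number of arrays. The scripts were tested on simulated data.

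The members, gene lists, comparisons and alternatives were chosen with earlier results of these data known. Named were the members, the zinc transporter and metallothionein families, the 2 highest and 2 lowest moderated t of each other list, called genes in the other comparisons, and the 3 nearest profiles. Members were not tested as a list. Protein sequences were not used here. Same-numbered arrays of different groups had correlations of deviations of −0.064 to 0.18, so the replicate numbers were not taken as pairs. The 24 alternatives varied the arrays, scaling, weights, moderation, threshold and block, and the 2 that remove a trend on genomic span were chosen after seeing the data, as were the fits of the other lists without each array.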

Additional observations from a re-analysis of the deposited data

How the results depend on the processing

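With 3 arrays per group, limits are wide, and an exact permutation test of 3 against 3 cannot give a p under 0.1. Mt2 kept its direction and its side of the threshold in all 3 comparisons under 23 of 24 alternatives, and in both comparisons with wild type under all 24. The exception was the submitters' threshold, which Mt2 (1.79) and Mt1 (1.32) met between VE and ob/ob vehicle, giving 2 members, 1 zinc transporter and 893 clusters there. That threshold called 5555 and 6630 clusters, each time with 8 transporters, between ob/ob vehicle or VE and wild type. The call of Mt1 between VE and wild type was lost without empirical Bayes (2.33) and against wild type array 3 alone (1.74), leaving 1 member.

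Between ob/ob vehicle and wild type, with only the groups compared, 1814 clusters and 1 zinc transporter were called, and without empirical Bayes 1675 and 1. Between VE and wild type, without empirical Bayes, 2536 clusters were called, and 1 transporter passed with only the groups compared, 5 at an adjusted p under 0.1 and 5 against wild type array 3 alone. Between VE and ob/ob vehicle, 19 clusters were called with only the groups compared or with wild type array 3 alone, 12 with a robust prior, 41 with array weights, 17 at an adjusted p under 0.1 and 0 without empirical Bayes. With the replicate number as a block 0 clusters were called there; the block changed no call of a member.

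Values near 0 changed sign. Slc30a1 between ob/ob vehicle and wild type was −0.014 after quantile normalization and −0.0067 against wild type array 3 alone. Between VE and wild type it was −0.16 after quantile normalization, −0.080 against that array and −0.011 with the span trend removed. Mtf1 between ob/ob vehicle and wild type was 0.066 with array weights, 0.087 after median centring and 0.11 against that array, and between VE and wild type −0.064 after quantile normalization. Median centring moved the median of all clusters between VE and wild type from −0.067 to 0.040.

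Leaving out each array in turn gave, between ob/ob vehicle and wild type, 1641 to 3545 clusters, 0 to 5 transporters, −0.125 to 0.135 for Mtf1 and −0.11 to 0.345 for Slc30a1. Between VE and ob/ob vehicle it gave 0 to 21 clusters, −0.335 to 0.12 for Slc30a1 and −0.052 to 0.34 for Slc39a14. Between VE and wild type it gave 2314 to 4706 clusters, 1 to 7 transporters and −0.07 to 0.055 for Slc30a1. The causes of these changes were not tested. None of the 5 members had a second cluster, so no other row could be tried.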
